A study of Mus musculus with 5 samples.

Results

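DNA replication and S-phase genes were followed in primary mouse lung fibroblasts cultured with TGF-β1 or with vehicle. The 33 genes were taken by symbol from a given list of replication factors, and all 33 were found among the 55335 gene IDs of the count table. All 33 also passed the filter on low counts, which left 16380 genes for testing. The 2 control libraries came from cells given vehicle, and the 3 TGF-β1 libraries from cells given TGF-β1 at 5 ng/mL, a secreted cytokine that drives fibroblasts towards a matrix-making state; treatment lasted 24 h. The series calls the libraries independent biological replicates. The sources used here give no mouse strain, genotype, age or passage, and do not say whether a replicate is an animal or a dish; p-values therefore cover only how much these libraries vary, which may be technical.

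A cell copies its DNA once per division. In G1 the origin recognition complex, with Cdc6 and Cdt1, loads the ring-shaped MCM2-7 helicase onto DNA; in S phase Cdc45 and the GINS complex switch that helicase on, polymerases copy both strands from primers, and the sliding clamp PCNA holds the polymerases on the template. Most of these genes are transcribed in a wave at the G1/S border under E2F transcription factors, so their messenger RNA marks proliferating cells, and TGF-β is known for slowing the division of many cell types while it is reported to stimulate that of some fibroblasts.

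Library totals ran from 34283288 to 43163967 counts. Of all genes tested, 44.5% passed at an adjusted p under 0.05 (edgeR's quasi-likelihood test, Benjamini-Hochberg adjustment), with 23.2% lower and 21.3% higher with TGF-β1. Scaling by TMM made 47.9% of the calls higher ones; scaling by library totals made that share 32.1% and shifted the median log2 fold change of all genes by −0.10. TGF-β1 replicate 3 stood apart: the chi-square per degree of freedom between its counts and those of replicates 1 and 2 was 8.47 and 8.41, against 5.13 between the controls. Levels are given in CPM, the count scaled to a common library depth. Of 10 fibroblast markers 5 were called higher and 5 lower; collagen and vimentin genes were abundant, and Lum, a matrix proteoglycan, was under 1 CPM in every library. The summed level of 12 mesothelial markers went from 1716 and 1620.1 CPM in the controls to between 287 and 311 CPM with TGF-β1, with 11 of 12 called lower. That of 13 macrophage and leukocyte markers went from 2873 and 2807 CPM to between 1828 and 1850.3 CPM, with 8 lower and 1 higher of the 11 tested; Cd3e, the T cell marker, was at 0 in every library. Of 10 epithelial markers 5 were at 0 throughout, Sftpc among them, 1 of the 3 tested was called higher, and their sum was 3.28 to 5.69 CPM. The 8 endothelial markers summed to between 3.54 and 5.14 CPM, and none of the 6 tested passed (edgeR; 1 was higher at an unadjusted p under 0.05). The replication genes moved in the same libraries as the mesothelial and macrophage markers, and the part of those cells in the result was not tested.

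Replication genes were lower with TGF-β1, most of them by a modest amount. Of the 33, 23 fell, 0 rose and 10 did not pass, against 23.2% of all tested genes lower. At an unadjusted p under 0.05 the counts were also 23 lower and 0 higher, and DESeq2 gave the same numbers. The median log2 fold change over the 33 was −0.37, against 0.00 over all tested genes, and 32 of the 33 estimates were below 0. Summed over the 33 genes, the level was 1068 and 1071 CPM in the controls and 796, 802 and 825 CPM with TGF-β1, so the groups lay well apart and TGF-β1 replicate 3 was the highest of its group. Of the 33, 27 had all 3 TGF-β1 libraries below both controls, against 33% of all tested genes. Large falls were fewer than elsewhere in the data: 9 of the 23 reached 1.5-fold and 0 reached 2-fold, whereas 2121 of all 3799 lower calls (55.8%) reached 1.5-fold. The comparison was not matched for level, and a gene with few counts needs a larger change to pass. In bulk RNA, fewer cells in S phase and less messenger RNA per cell cannot be told apart.

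The count rested in part on control replicate 2. Without it 15 of the 33 were called lower, against 16.7% of all genes tested in that fit, which takes the spread from the TGF-β1 libraries since 1 control remains. The fit without control replicate 1 also has 1 control, and 31 of its 33 estimates were below 0. Leaving out any 1 TGF-β1 library gave 21 to 25 lower, against 21% to 24% of all genes tested in those fits. Over 13 alternative settings, 15 of the 23 calls held in every one. The other 8, Orc6, Cdt1, Mcm10, Pola1, Pcna, Rfc3, Rrm2 and Ccne1, were each lost in at least 1 setting, and all 8 without control replicate 2.

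**Figure D1:**
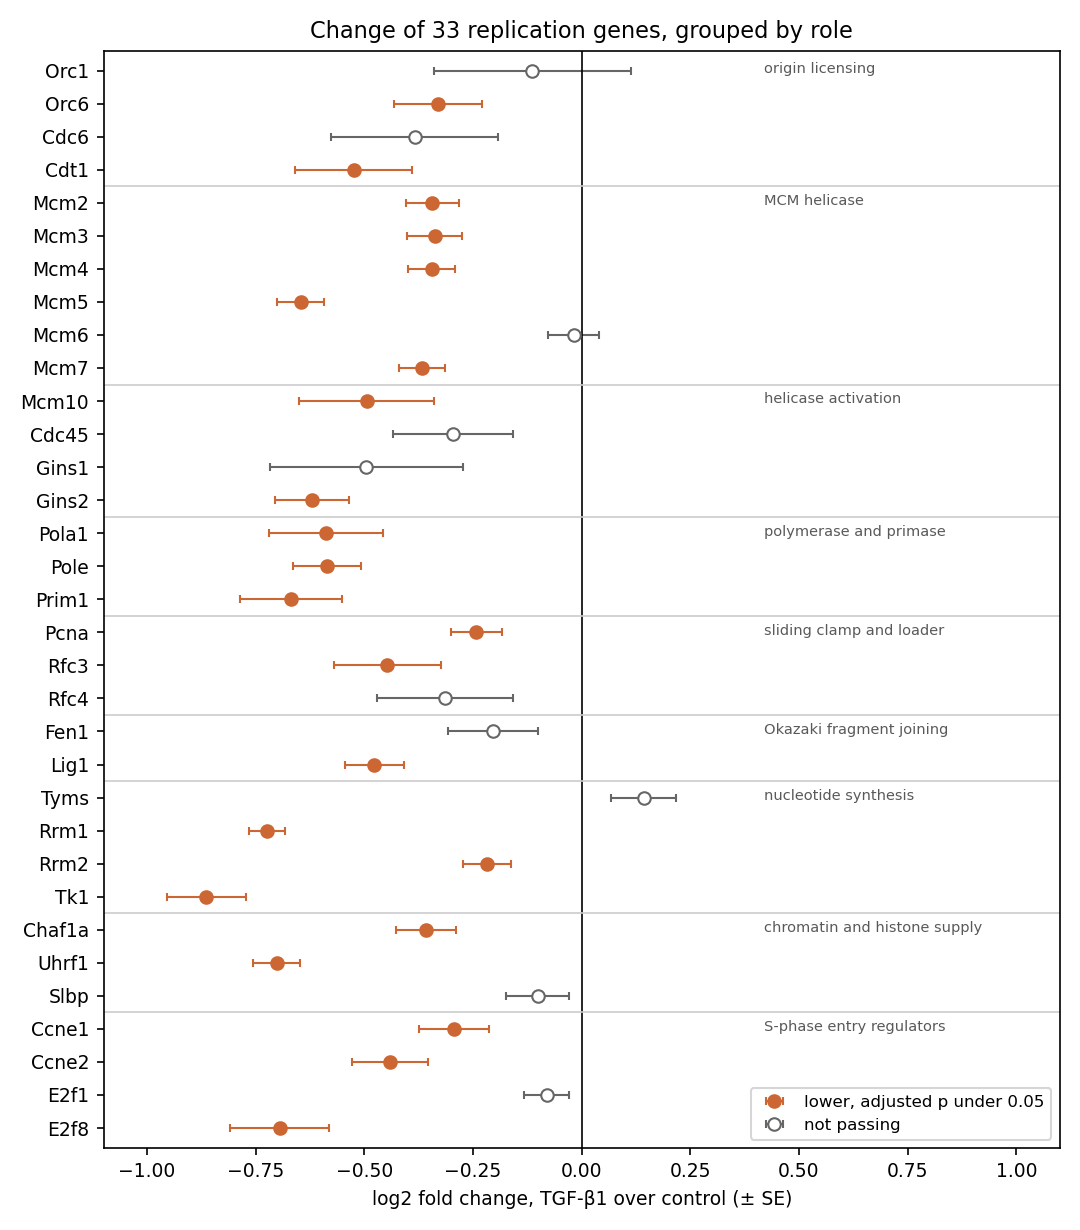
Log2 fold change of each of the 33 genes, TGF-β1 over control, with the standard error, grouped by role; filled points passed at an adjusted p under 0.05 and open points did not. The 23 filled points all lie left of 0, from Rrm2 at −0.22 to Tk1 at −0.86, and Tyms is the single point right of 0.

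Start-site sequences are shown for 4 of the genes because E2F and CCAAT letters are what the promoters of this group are known for, and because Mcm5 and Mcm6, which ended with unlike changes, can be set side by side. All lie upstream of the start site in RefSeq windows of build GRCm38.p6, written 5′ to 3′ on the gene's strand. Capitals mark matches to TTTCCCGC, TTTGGCGC, TTTCGCGC or TTTGCCGC (the E2F letters) on either strand in the first 3, and to CCAAT in Rrm1.
Mcm5, chr8:75109339-75109398, plus strand: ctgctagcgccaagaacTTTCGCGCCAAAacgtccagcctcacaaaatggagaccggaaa
Mcm6, chr1:128359736-128359825, minus strand: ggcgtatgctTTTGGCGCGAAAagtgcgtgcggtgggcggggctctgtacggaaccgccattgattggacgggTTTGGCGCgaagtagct
Pola1, chrX:93632261-93632320, minus strand: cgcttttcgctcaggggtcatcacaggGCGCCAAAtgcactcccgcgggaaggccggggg
Rrm1, chr7:102441595-102441664, plus strand: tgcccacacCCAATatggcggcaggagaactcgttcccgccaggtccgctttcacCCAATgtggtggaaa

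Mcm5 and Mcm6 each hold an E2F match that runs into a second one on the other strand, and Mcm6 has a further match nearer the start. RefSeq windows, from 250 bases before to 50 after the start, were found for 28 of the 33 genes, some with more than 1 window. E2F letters stood in 11 of the 28 (39.3%), against 4.56% of tested genes with a window and 2.60% of all 27025 symbols with one. CCAAT stood in 19 of 28 (67.9%, against 42.8% of tested genes and 41.1% of all), the GC box letters GGGCGG in 22 (78.6%, against 66.9% and 38.2%) and TTTGAA, letters of the cell cycle homology region, in 4 (14.3%, against 14.5% and 20.2%), each searched on both strands. None of the 17 E2F matches overlapped a GC box match. Among the 28, E2F letters stood in 8 of 19 genes called lower and in 3 of 9 that did not pass.

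Origin licensing genes were lower in part. Cdt1, which brings MCM2-7 to origins (chromosome 8, 122568015 to 122573554 of GRCm38), was at 16.0 and 17.6 CPM in the controls and 11.2, 10.02 and 13.96 CPM with TGF-β1. It fell with a log2 fold change of −0.52 (SE 0.13, adjusted p = 0.0109), and the groups did not overlap, although TGF-β1 replicate 3 stood nearest the controls and the call was lost without control replicate 2 (adjusted p = 0.103). Orc6, the smallest origin recognition subunit, fell from 20.2 ± 0.279 (SD, n = 2) to 16.1 ± 1.87 CPM (n = 3; log2 fold change −0.33, edgeR adjusted p = 0.0249). Its call was lost without control replicate 1 or 2 or TGF-β1 replicate 2, at adjusted p-values of 0.13, 0.103 and 0.065, and with no filter on low counts (0.055). Cdc6, the loading ATPase, was at 9.89 and 9.32 CPM in the controls and 7.43, 5.43 and 9.23 CPM with TGF-β1, so replicate 3 lay just under the lower control. Its log2 fold change of −0.38 did not pass (SE 0.19, adjusted p = 0.138), but it passed without replicate 3 (−0.58, adjusted p = 0.0105). Orc1, the subunit that marks origins in G1, had 98 to 150 counts per library; its estimate of −0.11 did not pass (adjusted p = 0.721) and turned positive without control replicate 1 (0.11) or TGF-β1 replicate 1 (0.056).

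The MCM2-7 helicase fell in 5 of its 6 subunits, and Mcm6 was the exception. Mcm5 (ENSMUSG00000005410, chromosome 8, 75109569 to 75128439) was at 41.5 and 41.3 CPM in the controls and 26.2, 26.0 and 27.1 CPM with TGF-β1. Both groups were tight and far apart, and the log2 fold change was −0.65 (SE 0.055, adjusted p = 1.26e-05), a level 36.1% lower. Mcm2, Mcm3, Mcm4 and Mcm7 fell by a similar amount to one another, with log2 fold changes of −0.34, −0.34, −0.34 and −0.37 and adjusted p-values of 0.000395 to 0.00185. Mcm6 (ENSMUSG00000026355, chromosome 1, 128331590 to 128359664) was at 61.3 and 61.6 CPM in the controls and 56.3, 62.1 and 63.6 CPM with TGF-β1. Its TGF-β1 libraries lay on both sides of the controls, with a log2 fold change of −0.018 (SE 0.059, adjusted p = 0.831) that was 0.038 without TGF-β1 replicate 1. The protein products of these genes join in equal numbers in the helicase ring, and the messenger RNA levels were not equal: per kb of transcript, Mcm6 was the highest subunit in every library. The ratio of Mcm6 to the mean of the other five, taken after the values were seen, was 1.57 and 1.55 in the controls and 1.87, 2.09 and 2.15 with TGF-β1. Mcm5 and Mcm6 both carry the E2F letters shown above, and their changes were unlike. Mcm3 and Mcm7 also held E2F letters in their windows, Mcm2 held none, and Mcm4 had no window. Whether the letters bear on the changes was not tested.

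**Figure D2:**
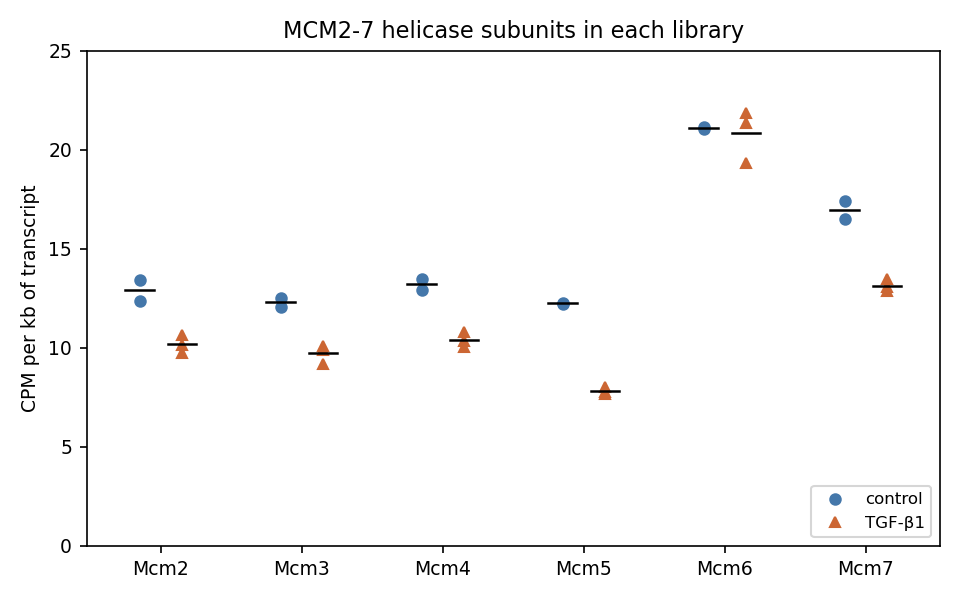
CPM per kb of transcript for each MCM2-7 subunit in each library (circles, control; triangles, TGF-β1), with black lines at the group means. Mcm6 stays between 19.3 and 21.8 in all libraries, while Mcm5 goes from 12.2 and 12.3 to between 7.68 and 8.02.

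Factors that turn the loaded helicase on were at low to middling levels, and 2 of 4 fell. Gins2, a GINS subunit, was at 24.6 and 21.3 CPM in the controls and 15.4, 14.6 and 14.8 CPM with TGF-β1 (log2 fold change −0.62, SE 0.085, adjusted p = 0.000302). Mcm10, which helps the helicase start to unwind, fell from 9.42 ± 0.405 to 6.68 ± 1.19 CPM (log2 fold change −0.49, adjusted p = 0.0281), a call lost without either control (adjusted p = 0.0942 and 0.149) and with no filter on low counts (0.0614). Cdc45, the helicase cofactor, was at 10.9 and 12.3 CPM in the controls and 11.0, 9.38 and 8.04 CPM with TGF-β1, and its groups overlapped (log2 fold change −0.30, adjusted p = 0.115). Gins1, the GINS subunit with 68 to 122 counts per library, had an estimate of −0.50 as large as that of Mcm10 but an SE of 0.22, and it did not pass (adjusted p = 0.101). Without TGF-β1 replicate 1, the highest of its group in both genes, Cdc45 and Gins1 passed (log2 fold change −0.41 and −0.69, adjusted p = 0.038 and 0.039).

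All 3 polymerase and primase genes fell, by 33.4% to 37.1%. Prim1, the subunit that makes the RNA primers (chromosome 10, 128015168 to 128030037), was at 10.8 and 13.1 CPM in the controls and 7.88, 7.21 and 7.50 CPM with TGF-β1 (log2 fold change −0.67, SE 0.12, adjusted p = 0.00143). Pole, the leading-strand polymerase ε, was at 19.8 and 20.7 CPM and then 13.1, 13.8 and 13.5 CPM (log2 fold change −0.59, SE 0.078, adjusted p = 0.000244). Pola1, the polymerase α that extends primers, was at 11.7 and 14.9 CPM and then 8.88, 9.69 and 8.01 CPM (log2 fold change −0.59, SE 0.13, adjusted p = 0.00531). For Prim1 and Pola1 the higher control was replicate 2, and without it Pola1 did not pass (log2 fold change −0.40, adjusted p = 0.0765).

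Of the clamp and its loader, 2 of 3 genes fell. Pcna, the sliding clamp (chromosome 2, 132249162 to 132253314), was at 64.0 and 63.3 CPM in the controls and 50.9, 52.7 and 57.8 CPM with TGF-β1 (log2 fold change −0.24, SE 0.060, adjusted p = 0.00895). Its call did not hold without either control (adjusted p = 0.0669 without replicate 1 and 0.0533 without replicate 2). The loader subunit Rfc3 fell from 8.95 ± 0.623 to 6.57 ± 0.520 CPM (log2 fold change −0.45, adjusted p = 0.0153; 0.111 without control replicate 2 and 0.055 without TGF-β1 replicate 1), and Rfc4, another loader subunit, went from 6.39 ± 0.141 to 5.15 ± 0.778 CPM without passing (adjusted p = 0.138). Of the genes that finish Okazaki fragments, the ligase Lig1 fell from 28.8 and 30.1 CPM to 20.01, 21.7 and 21.8 CPM (log2 fold change −0.48, SE 0.069, adjusted p = 0.000414). Fen1, the flap nuclease, did not pass (log2 fold change −0.20, adjusted p = 0.142); TGF-β1 replicate 3 was at 21.9 CPM, above the control at 21.1 CPM, and without it Fen1 passed (adjusted p = 0.0113).

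Nucleotide-supply genes held both the largest fall of the 33 and the single positive estimate. Tk1, the thymidine kinase of the salvage route (ENSMUSG00000025574, chromosome 11, 117815526 to 117826092), was at 30.1 and 28.4 CPM in the controls and 16.2, 17.6 and 14.4 CPM with TGF-β1. It fell by 45.0%, with a log2 fold change of −0.86 (SE 0.091, adjusted p = 5.26e-05). Rrm1, the large subunit of ribonucleotide reductase (ENSMUSG00000030978, chromosome 7, 102441695 to 102469771), was at 212 and 199.6 CPM and then 120.1, 126 and 128 CPM, with a log2 fold change of −0.72 (SE 0.042, adjusted p = 9.6e-07). Its partner subunit Rrm2 fell from 54.9 and 57.2 CPM to 47.8, 46.1 and 50.8 CPM (log2 fold change −0.22, SE 0.056, adjusted p = 0.0111; 0.0958 without control replicate 2). Per kb, the ratio of Rrm1 to Rrm2 was 2.12 and 1.91 in the controls and 1.38, 1.5 and 1.38 with TGF-β1, a ratio chosen after the values were seen. Tyms, the thymidylate synthase of the de novo route (ENSMUSG00000025747, chromosome 5, 30058202 to 30073617), was at 23.9 and 24.4 CPM and then 27.5, 27.9 and 24.6 CPM. All 3 TGF-β1 libraries were above both controls, as in 31.6% of all tested genes, and the log2 fold change of 0.14 did not pass (SE 0.075, adjusted p = 0.154). Without TGF-β1 replicate 3 Tyms was called higher (0.20, adjusted p = 0.0341). The ratio of Tk1 to Tyms per kb, also chosen after the values were seen, was 2.77 and 2.55 in the controls and 1.29, 1.38 and 1.29 with TGF-β1.

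Of 3 genes of chromatin and histone supply, 2 fell. Uhrf1, which reads hemimethylated DNA and brings in the maintenance methyltransferase (chromosome 17, 56303321 to 56323486), was at 41.3 and 41.7 CPM in the controls and 25.8, 25.4 and 25.4 CPM with TGF-β1 (log2 fold change −0.70, SE 0.054, adjusted p = 6.31e-06). Chaf1a, the large subunit of chromatin assembly factor 1, fell from 37.1 ± 1.77 to 29.0 ± 1.78 CPM (log2 fold change −0.36, adjusted p = 0.00226). Slbp, which binds the stem-loop of histone messenger RNA, was at 31.2 and 32.1 CPM and then 28.2, 28.2 and 32.2 CPM, so its groups overlapped (log2 fold change −0.10, adjusted p = 0.298).

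Of 4 regulators of S-phase entry, 3 fell and E2f1 did not pass. E2f8, an atypical E2F that represses transcription (chromosome 7, 48866429 to 48881596), was at 11.8 and 13.8 CPM in the controls and 8.05, 7.33 and 8.30 CPM with TGF-β1 (log2 fold change −0.70, SE 0.11, adjusted p = 0.000935). E2f1, an activating E2F (chromosome 2, 154559407 to 154569892), was at 36.3 and 36.0 CPM and then 34.4, 33.6 and 34.6 CPM. Its groups did not overlap, but the log2 fold change was −0.081 and did not pass (SE 0.053, adjusted p = 0.249); with library totals alone it passed (−0.18, adjusted p = 0.0199). The cyclins E, partners of CDK2, both fell: Ccne1 from 24.6 ± 1.25 to 20.05 ± 1.43 CPM (log2 fold change −0.29, adjusted p = 0.0155) and Ccne2 from 15.7 ± 0.118 to 11.6 ± 0.455 CPM (log2 fold change −0.44, adjusted p = 0.00266). The call for Ccne1 was lost without control replicate 2 or TGF-β1 replicate 1 or 2, at adjusted p-values of 0.132, 0.051 and 0.0545.

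Set in order of level per kb of transcript, Rrm1 led the controls at 51.5 ± 2.22, followed by Pcna at 41.9 ± 0.320, Rrm2 at 25.6 ± 0.741, Mcm6 at 21.1 ± 0.0733 and Tk1 at 20.3 ± 0.844 CPM per kb, and none of these neighbours overlapped. From rank 9 to rank 14, E2f1, Mcm4, Mcm2, Mcm3, Ccne1 and Mcm5 each overlapped the next, between 11.8 and 13.5 CPM per kb. Mcm10 and Orc1 were lowest, at 1.93 ± 0.0832 and 1.15 ± 0.238 CPM per kb. With TGF-β1 Pcna led, at 33.6 to 38.0 CPM per kb against 30.04 to 31.9 for Rrm1, and Tk1 went from rank 5 to rank 9.

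**Figure D3:**
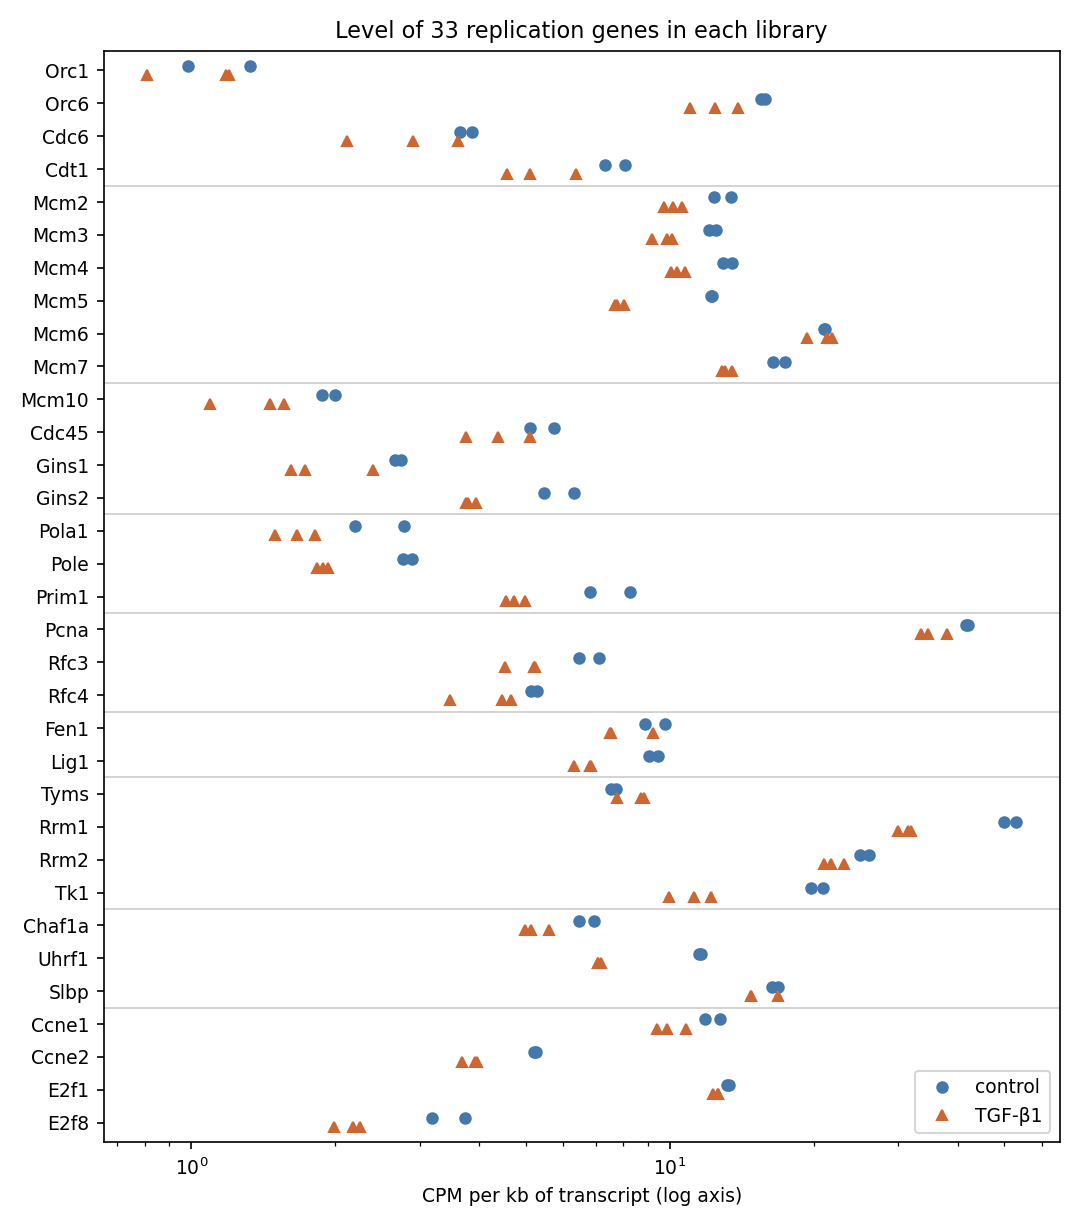
CPM per kb of transcript, on a log axis, for each of the 33 genes in each library (circles, 2 controls; triangles, 3 TGF-β1 libraries), with grey lines between roles. In 27 rows every triangle lies left of both circles, and Rrm1 and Pcna are the genes farthest to the right.

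Some of these counts carry uncertainty from neighbours and copies. In 11 of the 33 genes exons overlap those of another gene, on the opposite strand, counted at over 0.1 of the gene's own level, and the strand setting of the counting is not given. They are Orc1, Orc6, Mcm7, Cdc45, Gins2, Rfc4, Fen1, Lig1, Tk1, Chaf1a and Ccne2. The overlap covers 67.3% of the exon bases of Gins2 (with Gse1) and 52.5% of those of Chaf1a (with Ubxn6). Some neighbours with shorter overlaps had much higher mean levels than the gene itself. Eif4a2 was at 278 CPM against 5.65 for Rfc4 (12.7% of exon bases) and Vps35 at 166 against 17.7 for Orc6 (6.93%). Ints8 was at 52.8 CPM against 13.2 for Ccne2 (17.4%). Of the other 22 genes, 16 fell. Pcna and Mcm7 share 31.8% and 26.0% of their 50-base stretches with the copies Pcna-ps2 and Gm5487, listed at no more than 3.48 and 1.14 CPM, and Uhrf1 shares 18.0% with Gm5648, at no more than 0.238 CPM. Among genes over a set lower limit on sharing, Tyms shares between 1.03% and 4.34% with each of many others. Some of these had no counts, and others were abundant, such as Atp2b1 (1.12%, up to 86.3 CPM) and Zdhhc21 (2.31%, up to 31.6 CPM). Whether their reads reached the Tyms count was not tested.

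Other replication factors were lower more often than higher, too. Of 54 further genes of the replication machinery, 25 fell, 4 rose and 25 did not pass, with a median of −0.22. Ticrr, which readies origins for firing, fell from 9.33 ± 1.71 to 5.50 ± 0.132 CPM (log2 fold change −0.76), Chaf1b, the partner of Chaf1a, from 11.8 ± 1.62 to 7.38 ± 0.530 CPM (−0.67), Tonsl from 8.39 ± 0.544 to 5.31 ± 0.488 CPM (−0.66) and Clspn, a fork checkpoint protein, from 18.6 ± 1.06 to 11.9 ± 1.32 CPM (−0.64), with adjusted p-values of 0.00096 to 0.00289. Exons of Ticrr and Tonsl overlap those of Kif7 and Vps28. The 4 that rose, Pole4, Mtbp, Top1 and Supt16, outside the naming rule and chosen after their values were seen, had log2 fold changes of 0.15 to 0.44. These were 46.3% lower and 7.41% higher, against 23.2% and 21.3% of all tested genes. Without control replicate 2, 11 of this list were lower, and that share of 20.4% was near the 16.7% of all genes in the same fit. The count of higher genes was 1 with library totals alone (1.85%, against 14.2% of all genes tested in that fit). It was 2 without TGF-β1 replicate 1 or 2 (3.70%, against 19.3% and 19.2% of all genes). It was 7 without TGF-β1 replicate 3 or with the replicate number as a block (13.0%, against 22.4% and 21.6% of all genes). The median of this list was −0.24 without control replicate 1 and −0.20 without control replicate 2.

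Mitosis genes, which peak later in the cycle, fell in all 36 of 36 cases, against 23.2% of all tested genes lower. Their median was −0.72, with a range of −1.25 to −0.30. DESeq2 called 35 lower, against 21.5% of all genes tested in that fit. Without control replicate 2 the median was −0.69. Anln, the cytokinesis scaffold anillin, was at 144 and 147 CPM in the controls and 60.9, 62.7 and 60.1 CPM with TGF-β1 (log2 fold change −1.25, SE 0.041, adjusted p = 1.84e-08). Nusap1, Ect2 and Cenpf, genes of the spindle, cytokinesis and kinetochore, had log2 fold changes of −1.21, −1.08 and −0.96; Nusap1 shares exon bases with Oip5. The medians of −0.37 for the 33 replication genes and −0.72 for the mitosis genes stand side by side as descriptions; their difference was not tested.

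Of 33 regulators of the E2F and RB axis, 14 fell, 8 rose and 11 did not pass. The lower share was 42.4% against 23.2% of all tested genes, and the higher share of 24.2% was near the 21.3% of all tested genes. Cdkn2b, encoding the CDK4/6 inhibitor p15 and a known TGF-β target, was at 45.0 and 45.5 CPM in the controls and 125, 119 and 110.2 CPM with TGF-β1 (log2 fold change 1.38, SE 0.060, adjusted p = 1.32e-07). Ccnd1, cyclin D1, fell from 107 ± 8.50 to 48.2 ± 5.83 CPM (log2 fold change −1.15), the inhibitor Cdkn2c fell from 26.1 ± 1.3 to 12.6 ± 0.452 CPM (−1.05) and Tfdp2, an E2F partner, fell from 59.2 ± 1.22 to 33.4 ± 1.76 CPM (−0.82). The median log2 fold change of this list was −0.17 in the main fit and −0.14 without control replicate 1. Ccnd1 also has exon overlap with LTO1 on the opposite strand, at over 0.1 of its level.

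**Figure D4:**
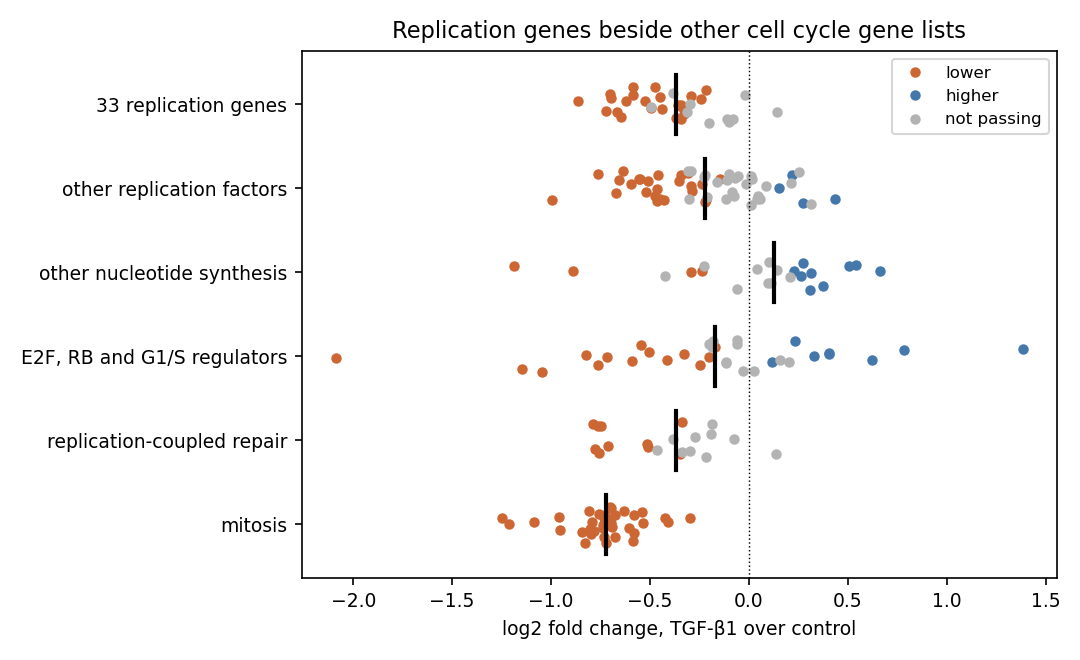
Log2 fold change, TGF-β1 over control, of the 33 replication genes and of 5 other lists, 1 point per gene coloured by call, with black bars at the list medians and a dotted line at 0. The replication genes centre on −0.37 and the mitosis genes on −0.72, and the nucleotide synthesis list centres at 0.13.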

How the data were processed

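Messenger RNA of 5 libraries was sequenced, and the deposited file holds raw counts, whole numbers for each Ensembl gene and library, unscaled. Per the labels' protocols, RNA was taken with RNAiso Plus and stranded libraries were made with a Vazyme VAHTS kit. The submitters' processing notes name STAR 2.5.3a, StringTie 1.3.1c and build mm10; what did the counting, with which strand setting and annotation, is not stated in the sources used here. Samples were grouped by title. Symbols and coordinates (1-based) are from GENCODE M21 (GRCm38), which matched 55154 IDs; 181 others stayed in the tests. Genes were filtered with filterByExpr, scaled by TMM and tested by quasi-likelihood F tests in edgeR with group as the single term; the test is two-sided, its p-values were adjusted by Benjamini-Hochberg across 16380 genes, and the threshold was 0.05; SE is the log2 fold change over the square root of F. The model was also run on simulated data drawn from its own fitted dispersions, with few genes changed. That setting differs from these data, so the run does not show how the model performs on them. With 2 and 3 libraries, no exact permutation test could give a p under 0.1. CPM use the TMM-scaled library total; per kb values divide by the longest principal protein-coding transcript. Chtf8, with 2 IDs, was left out of the list of other replication factors. Library depth is in the report; the lowest members, Orc1 and Gins1, had 68 to 150 counts in a library.

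Alternatives were 3 other scalings (library totals, upper quartile, median of ratios), 2 other filters (none, or 1 CPM in 2 libraries), limma-voom, DESeq2, a block on replicate number, and a fit without each library. The 33 genes and the other lists were chosen with earlier results of these data known. All 33 are accounted for; of each other list up to 4 genes are named, by size of change among those that passed and averaged 5 CPM or more, and exceptions are marked; 2 of these genes are not reported here. Of the marker lists the most abundant in control were Fn1 (19534 CPM), Upk1b (492 CPM), Lyz2 (1994.5 CPM), Cdh1 (2.03 CPM) and Kdr (1.66 CPM). The fits ran in R 4.3.3 (DESeq2 1.42.0, edgeR 4.0.16, limma 3.58.1), and tables and figures were made in Python 3.11.15.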

Additional observations from a re-analysis of the deposited data

How the results depend on the processing

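Of the 33 replication genes, 23 were called lower with median-of-ratios scaling, upper-quartile scaling, limma-voom, DESeq2 and a filter of over 1 CPM, 26 with library totals alone and 21 without a filter. The share of all tested genes called lower moved the same way: 23.2% in the main fit, 30% with library totals alone and 13.3% without a filter. In the other settings just named it was 21.5% (DESeq2) to 26.1% (filter of over 1 CPM). Estimates were below 0 in every one of the 13 alternatives for 30 of the 33. Library totals alone gave 2325 higher genes overall and a median of −0.47 over the 33. Leaving out 1 library at a time gave 15 to 25 lower, 0 to 1 higher (Tyms, without TGF-β1 replicate 3) and 7 to 18 not passing, with 15 lower and 18 not passing without control replicate 2, and a median of −0.40 to −0.36; over all genes it gave 2620 to 3623 higher and 2813 to 3881 lower. In the same fits that leave out 1 library, Orc1 ranged from −0.31 to 0.11 and Mcm6 from −0.053 to 0.038, with Orc1 at 0.11 and 0.056 without control replicate 1 and TGF-β1 replicate 1, and Mcm6 at 0.038 without TGF-β1 replicate 1. Fn1 turned from 0.052 to −0.047 with library totals. Leaving out a library reduces the samples in the fit. With the replicate number as a block the median was −0.40, with 24 lower and Orc6 not passing (adjusted p = 0.0513). Over all genes that fit called 3538 higher and 3727 lower. No control carries the number 3, so the block takes up TGF-β1 replicate 3 and the contrast rests on the other libraries. Its estimates were close to those without TGF-β1 replicate 3, with Rrm1 at −0.74 and Orc6 at −0.25 in both. Deviations of same-numbered libraries from the group means correlated at 0.016 in both pairs. With 2 controls those deviations are mirror images, so the pairs are not separate checks and cannot show whether a preparation was shared. The cause of the other shifts was not tested. Counts of 68 to 150 per library limit what can be seen in Gins1 and Orc1.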

Other observations

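Of 22 genes of nucleotide synthesis outside the 33, 9 rose, 4 fell and 9 did not pass. The higher share was 40.9% against 21.3% of all tested genes, and the lower share of 18.2% was near the 23.2% of all tested genes. The median log2 fold change was 0.13, and 0.029 with library totals alone, which shift all genes by −0.10. Cad, which starts pyrimidine synthesis, rose from 60.4 ± 0.172 to 95.4 ± 2.87 CPM (log2 fold change 0.66, edgeR adjusted p = 3.1e-06), and Dut, the dUTPase, rose from 19.96 ± 0.149 to 29.0 ± 2.13 CPM (0.54). Samhd1, which breaks down deoxynucleotides, fell from 86.6 ± 5.40 to 38.0 ± 0.637 CPM (−1.19, adjusted p = 1.62e-07).

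Repair genes that act at replication forks had 10 lower (50%, against 23.2% of all tested genes), 0 higher and 10 not passing of 20 by edgeR; 0 were higher and 12 lower at an unadjusted p under 0.05, and DESeq2 called 9 lower and 0 higher. Their median of −0.37 was the same to 2 decimals as that of the 33 replication genes. Msh6, a mismatch repair subunit, fell from 49.8 ± 0.147 to 29.6 ± 2.12 CPM (log2 fold change −0.75). Brip1, a helicase, and Rad51ap1 fell by 0.76 and 0.71 on the log2 scale; Rad51ap1 did not pass without control replicate 2 (adjusted p = 0.064). Exons of Msh6 overlap those of Fbxo11 on the opposite strand.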
